A study of Mus musculus with 6 samples.

Results

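Transcripts of 6 genes that link proline with glutamine and glutamate were followed in mouse regulatory T cells after activation of EP4, which is one of the receptors for prostaglandin E2. The genes were Aldh18a1, Pycr1, Prodh, Oat, Glud1 and Glul, and they were taken by name from the 47643 reference genes of each table. All 6 were listed, and 4 of them (Aldh18a1, Oat, Glud1 and Glul) were among the 12186 genes with enough signal to be tested, which means that 3 or more libraries reached an FPKM of 1. FPKM is a fragment count scaled to transcript length and library size, so levels can be set side by side between genes. The genes were selected on the agonist and vehicle FPKM values of these libraries and their log2 differences, Aldh18a1 in first place. Their differences between the groups are therefore given as a description, without p-values, and support nothing further.

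Both groups held natural regulatory T cells (nTregs) from spleens of C57BL/6 mice of the genotype Foxp3-DTR/EGFP, in which cells that express Foxp3 also carry a diphtheria toxin receptor and green fluorescence. The cells of both groups had been stimulated for 2 days through CD3 and CD28 with IL-2 present. The vehicle group (3 libraries) then received DMSO and the EP4 agonist group (3 libraries) received 100 nM of the agonist, both for 6 h, before sorting for green fluorescence and sequencing of mRNA with a stranded kit. The labels name neither the agonist compound nor the age or sex of the mice, and they do not say whether replicates were separate mice or cultures, so the spread behind the p-values is that of these libraries only and may be technical. The study is about prostaglandin E2, its receptors EP2 and EP4, and the regulatory T cells of tumours, and these libraries address what an EP4 agonist does to nTreg transcripts in culture.

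Proline is made from glutamate in mitochondria. The enzyme encoded by Aldh18a1, pyrroline carboxylate synthase, reduces glutamate to an intermediate that pyrroline carboxylate reductases such as Pycr1 and Pycr3 turn into proline. Prodh, proline dehydrogenase, starts the way back, and Oat, ornithine aminotransferase, joins the same intermediate to ornithine and so to arginine and polyamines. Glud1, glutamate dehydrogenase, passes the carbon of glutamate to the citric acid cycle, while Glul, glutamine synthetase, adds ammonia to glutamate. Activated T cells take up much glutamine and spend its nitrogen on nucleotides and its carbon on the citric acid cycle.

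With the agonist, Aldh18a1 transcripts stood 52.4% higher and Glud1 transcripts 33.3% higher than with vehicle, whereas the agonist and vehicle libraries overlapped for Oat and Glul. Pycr1 and Prodh were below 1 FPKM in all 6 libraries by their reference gene models. Among the vehicle libraries Glud1 had the highest level (79.4 ± 7.98 FPKM, mean ± SD, n = 3), followed by Aldh18a1 (43.6 ± 0.679), Oat (38.9 ± 1.13), Glul (36.3 ± 3.05), Pycr1 (0.376 ± 0.212) and Prodh (0.255 ± 0.193). The vehicle ranges of Oat and Glul overlapped, as did those of Pycr1 and Prodh, and every other step in this order was free of overlap. In the agonist libraries Oat (38.1 ± 2.22) and Glul (38.4 ± 3.03) overlapped again, the other members kept their places, and Pycr1 lay above Prodh without overlap. The order of Pycr1 and Prodh holds for the reference models only. By assembled loci on their strands, Prodh had the higher mean with vehicle (1.812 against 0.7045 FPKM). With the agonist the means were 1.205 and 1.156 FPKM, and the libraries overlapped. Bulk RNA cannot tell fewer cells with a transcript from less of it per cell.

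**Figure D1:**
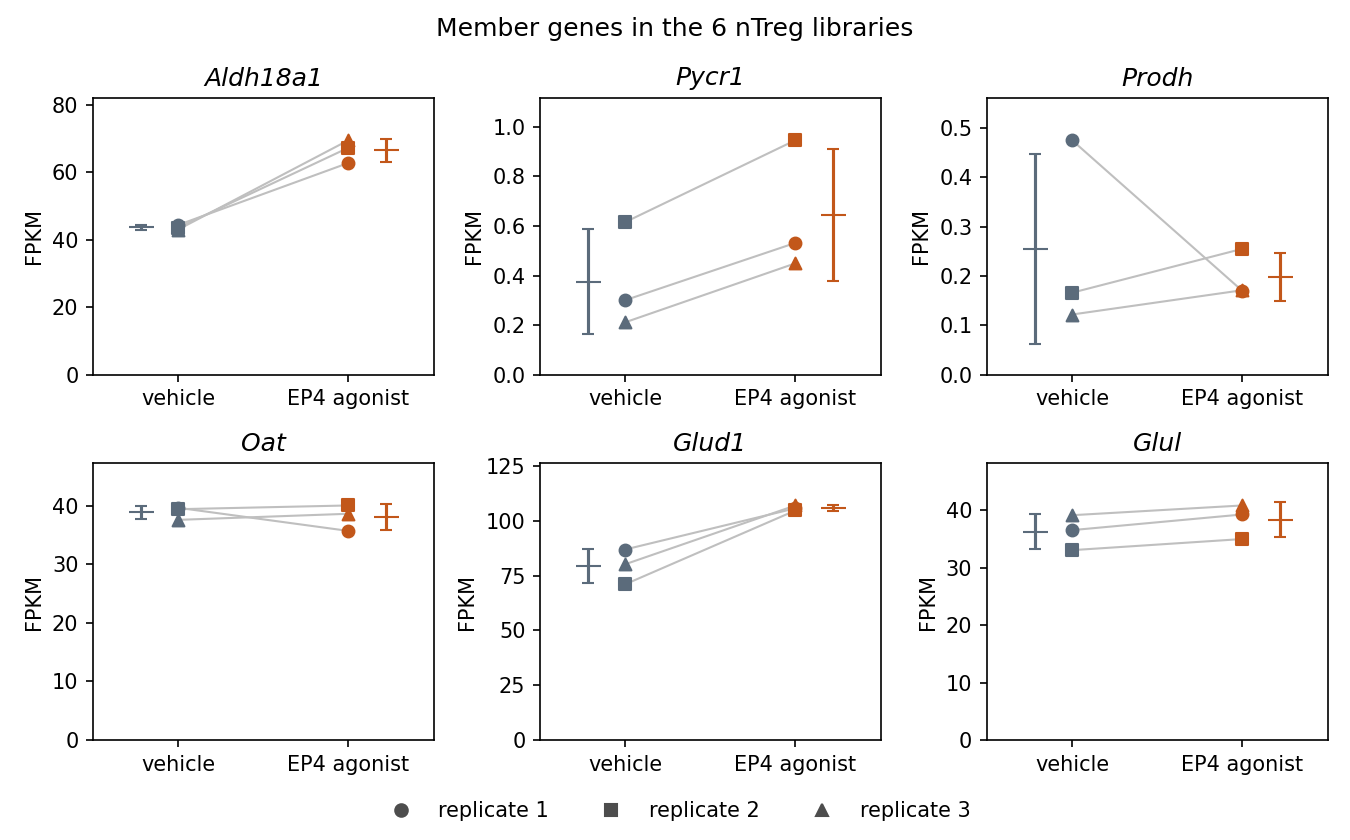
FPKM of the 6 genes in each library, with vehicle on the left and EP4 agonist on the right of each panel and its own linear axis from 0. Grey lines join libraries with the same replicate number, and the bars flanking the points give mean ± SD (n = 3). The agonist libraries lie above all vehicle libraries for Aldh18a1 (62.7 to 69.5 against 43.0 to 44.3 FPKM) and Glud1 (105 to 107 against 71.1 to 87.0 FPKM), and the groups overlap for the other 4 genes.

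Aldh18a1 (ENSMUSG00000025007.13, chr19:40550257-40588463, minus strand, mm10) was measured at 44.3, 43.5 and 43.0 FPKM in vehicle replicates 1, 2 and 3, and at 62.7, 67.2 and 69.5 FPKM in the agonist replicates. The vehicle libraries were close together and every agonist library was above them. The difference of log2(FPKM + 1), a scale that slightly understates the change, was 0.60 with a standard error of 0.07. It was 0.49, 0.62 and 0.68 in the pairs of libraries that share a replicate number. A processed pseudogene, Gm15801, lies inside the gene on the same strand, at 2.82 to 4.67 FPKM.

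The promoter of Aldh18a1 is shown with those of Pycr1, the gene of the following step, and Glud1, the other gene whose groups did not overlap. Each line gives the 250 bases before the RefSeq start on the gene's strand (GRCm38.p6, the assembly called mm10), at chr19:40588464-40588713 (minus strand), chr11:120643749-120643998 (minus strand) and chr14:34310477-34310726 (plus strand).
Aldh18a1: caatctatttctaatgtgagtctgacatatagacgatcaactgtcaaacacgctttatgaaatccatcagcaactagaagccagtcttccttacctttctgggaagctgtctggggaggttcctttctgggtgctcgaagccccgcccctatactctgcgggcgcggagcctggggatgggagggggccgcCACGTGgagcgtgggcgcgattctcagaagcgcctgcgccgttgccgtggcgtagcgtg
Pycr1: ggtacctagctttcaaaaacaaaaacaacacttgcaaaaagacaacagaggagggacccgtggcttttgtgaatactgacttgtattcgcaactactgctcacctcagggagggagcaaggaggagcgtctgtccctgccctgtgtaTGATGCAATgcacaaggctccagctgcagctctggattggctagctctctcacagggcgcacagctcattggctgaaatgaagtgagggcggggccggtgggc
Glud1: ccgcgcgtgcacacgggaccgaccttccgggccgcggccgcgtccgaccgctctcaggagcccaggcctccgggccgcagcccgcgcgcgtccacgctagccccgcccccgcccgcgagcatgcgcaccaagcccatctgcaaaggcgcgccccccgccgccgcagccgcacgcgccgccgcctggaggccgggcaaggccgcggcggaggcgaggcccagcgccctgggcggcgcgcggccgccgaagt
Capitals mark matches to motifs searched on both strands. Aldh18a1 holds CACGTG, the E-box that factors such as Myc can bind, 59 to 54 bases before the start, and 6.02% of the 32851 promoter windows of this length hold it. Pycr1 holds TGATGCAAT, a match to the amino acid response element TGATGNAAN bound by Atf4 and its partners, 103 to 95 bases before the start, and 3.44% of windows hold such a match. The cyclic AMP response element TGACGTCA (1.55% of windows) and the shorter TGACG that it contains (17.8%) were in the window of none of the 6 genes. A match is a description of the letters and no evidence of binding. Of the 2 regulators named here, Atf4 had 65.1 ± 7.35 FPKM with vehicle and 61.5 ± 3.34 with the agonist (limma, adjusted p = 0.780), and Myc had 66.7 ± 14.0 and 56.5 ± 9.35 FPKM (adjusted p = 0.625). These are transcript levels, and the protein or activity of either regulator was not tested.

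The reductase that follows, Pycr1 (ENSMUSG00000025140.15, chr11:120635712-120643769, minus strand), was at 0.3005, 0.615 and 0.211 FPKM with vehicle and at 0.532, 0.946 and 0.449 FPKM with the agonist. The groups overlapped, and the agonist value was the higher one in each same-numbered pair. At this level the gene model matters: assembled loci on the strand of Pycr1 summed to 0.592, 0.615 and 0.906 FPKM with vehicle and 1.37, 1.73 and 0.372 FPKM with the agonist, so that replicate 3 went the other way. Pycr3, a related reductase named Pycrl in the tables, had 16.6, 16.5 and 16.1 FPKM with vehicle and 12.02, 14.79 and 11.75 FPKM with the agonist. All 3 agonist values of Pycr3 were below the vehicle values, and the gene did not pass limma's test (log2 difference -0.34, standard error 0.10, adjusted p = 0.216). Per library, Pycr3 was 26.9 to 76.2 times as high as Pycr1 with vehicle and 15.6 to 26.1 times with the agonist.

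On the way back from proline, Prodh (ENSMUSG00000003526.11, chr16:18060357-18090203, minus strand) was at 0.476, 0.166 and 0.122 FPKM with vehicle and at 0.170, 0.255 and 0.171 FPKM with the agonist. The highest and the lowest value were both from vehicle libraries. Assembled loci on the strand of Prodh summed to more, 1.14, 1.75 and 2.54 FPKM with vehicle and 1.23, 1.47 and 0.918 FPKM with the agonist. Their groups overlapped too, so the level of Prodh depends on the gene model. Dgcr6 and Gm15954 overlap Prodh on the opposite strand at 4.80 to 11.5 FPKM, and the strand setting of the counting is not given in the sources used here. Aldh4a1, the dehydrogenase that completes the conversion to glutamate, had 6.25 ± 0.716 FPKM with vehicle and 6.03 ± 0.873 with the agonist (limma, adjusted p = 0.910). It shares its strand with the model Gm21969, so part of this signal may belong to that model.

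Oat (ENSMUSG00000030934.8, chr7:132557475-132576398, minus strand) was at 39.6, 39.4 and 37.6 FPKM with vehicle and at 35.69, 40.04 and 38.62 FPKM with the agonist. Agonist replicate 1 was the lowest and agonist replicate 2 the highest of the 6 libraries. The log2 difference was -0.03 with a standard error of 0.08, and its sign turned with upper quartile scaling (0.01), with quantile normalization (0.02) and without agonist replicate 1 (0.02). Set against Oat, which draws on the same intermediate, Aldh18a1 was 1.11 to 1.14 times as high with vehicle and 1.68 to 1.80 times as high with the agonist.

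Glud1 (ENSMUSG00000021794.15, chr14:34310727-34345144, plus strand) was at 87.0, 71.1 and 80.2 FPKM with vehicle and at 106, 105 and 107 FPKM with the agonist. The agonist libraries were close together and all above the vehicle libraries, which spread more widely. The log2 difference was 0.42 with a standard error of 0.09, and 0.28, 0.55 and 0.41 in the pairs numbered 1, 2 and 3. Glul (ENSMUSG00000026473.15, chr1:153899944-153909723, plus strand) was at 36.6, 33.1 and 39.1 FPKM with vehicle and at 39.3, 35.0 and 40.9 FPKM with the agonist. The groups overlapped, with agonist above vehicle by a log2 difference of 0.06 to 0.10 in each pair. Agonist above vehicle in all 3 pairs was found for 20.7% of tested genes. The first bases of Glul overlap the microRNA model Mir8114, which was listed at 30.5 to 44.9 FPKM and shares its strand. Per library, the ratio of Glud1 to Glul was 2.05 to 2.38 with vehicle and 2.62 to 2.99 with the agonist.

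Among the 4 tested members, limma at an adjusted p under 0.05 called 1 higher, Aldh18a1, and 0 lower, where 0.345% of all tested genes were called higher, 0.0492% lower and 0.394% in either direction. In a fit with the replicate number as a block, 2 members were called higher, Aldh18a1 and Glud1, and 0 lower, where 4.09% of all tested genes were called higher, 6.41% lower and 10.5% in either direction. Agonist libraries lay above all vehicle libraries for 2 of the 4, and for 7.27% of all tested genes. These counts follow from how the genes were proposed and nothing is read from them. The same holds for the calls followed below, whose stability is given as a description and is no test of these genes. Without the block, the call of Aldh18a1 was lost when vehicle replicate 2, vehicle replicate 3 or any 1 agonist replicate was left out, although its log2 difference then stayed between 0.56 and 0.64. With the block, its call was lost without pair 2 or pair 3, and that of Glud1 was lost when any 1 pair was left out (log2 difference 0.35 to 0.48).

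The 6 tested genes whose profile over the 6 libraries came closest to that of Aldh18a1 were Hif1a, Samsn1, Sla, Tbc1d9b, Chst11 and Ext1. Closeness was the root mean square distance between log2(FPKM + 1) values after each gene's own mean had been subtracted, and it ranged from 0.04 for Hif1a to 0.05 for Ext1. Hif1a, the oxygen-regulated transcription factor, was at 77.2, 71.9 and 71.8 FPKM with vehicle and at 104, 107 and 118 FPKM with the agonist. Sla, an adaptor that dampens T cell receptor signalling, was at 52.0, 48.1 and 48.5 FPKM with vehicle and at 70.8, 77.6 and 73.8 FPKM with the agonist. Chst11 and Ext1, enzymes of chondroitin and heparan sulphate chains, were low. They had 0.608 ± 0.0426 and 2.19 ± 0.207 FPKM with vehicle and 1.36 ± 0.0350 and 3.81 ± 0.214 FPKM with the agonist. Chst11 passed the FPKM filter through its agonist libraries alone, and its FPKM were 2.24 times as high with the agonist against 1.52 times for Aldh18a1. On the log2(FPKM + 1) scale of the distance, which compresses changes of low genes, its difference was 0.55. Glud1 was at rank 65 by this distance (0.13), Glul at rank 2150 (0.28) and Oat at rank 4021 (0.31).

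Around the 6 genes, 80 others of proline, glutamine, glutamate, arginine, polyamine and glutathione metabolism, of transport and of its regulators were listed, and 64 were tested. The lists were written with earlier results of these data known, so their counts are a description. Glutaminase 2 (Gls2) and the cytosolic aspartate aminotransferase (Got1) rose, and 0 of the 64 fell, by limma at an adjusted p under 0.05. In that fit 0.345% of all tested genes rose and 0.0492% fell. At an unadjusted p under 0.05 there were 7 higher and 12 lower among the 64, where 5.22% of all tested genes were higher and 8.74% lower at that threshold. Without 1 library the number called was 0 to 3, and it was 0 without vehicle replicate 2, vehicle replicate 3, agonist replicate 2 or agonist replicate 3. Of all 12186 tested genes, 0 to 133 were called without 1 library. With the block 5 rose and 14 fell, where 4.09% and 6.41% of all tested genes did. With the block and quantile normalization 4 rose and 11 fell, while over all genes that setting moved the calls from 498 higher and 781 lower to 519 higher and 478 lower. The median log2 difference of the 64 was -0.10, beside -0.03 for all tested genes.

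Gls2 (ENSMUSG00000044005.13, chr10:128194457-128210004, plus strand), a mitochondrial glutaminase that releases glutamate from glutamine, was at 1.65, 1.10 and 1.45 FPKM with vehicle and at 4.71, 5.42 and 4.44 FPKM with the agonist. Its log2 difference was 1.29 (standard error 0.13; limma, adjusted p = 0.0165). Every agonist library was above every vehicle library. The end of Gls2 overlaps Spryd4 on the opposite strand, a gene at 2.71 to 3.18 FPKM. The call of Gls2 was lost without vehicle replicate 2 or 3 or any 1 agonist replicate (adjusted p 0.0713 to 0.0951, log2 difference 1.20 to 1.34). Over all alternatives the adjusted p ran from 0.00703 to 0.119.

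Got1 moves nitrogen between glutamate and aspartate in the cytosol, and Got2 does so in mitochondria. Got1 was at 23.5, 26.3 and 21.1 FPKM with vehicle and at 53.1, 64.0 and 66.4 FPKM with the agonist (limma, log2 difference 1.33, adjusted p = 0.0154), while Got2 was at 59.0, 71.7 and 66.4 FPKM and at 54.3, 62.7 and 58.0 FPKM (adjusted p = 0.494). The ratio of Got1 to Got2 was 0.318 to 0.399 with vehicle and 0.977 to 1.15 with the agonist, so the groups did not overlap. The call of Got1 was lost without vehicle replicate 2 or 3 or agonist replicate 2 or 3 (adjusted p 0.0503 to 0.0951), and over all alternatives the adjusted p ran from 0.00703 to 0.119.

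Gls2 and Got1 were the 2 genes to rise, and 0 fell, among 18 tested genes that make or use glutamine and glutamate. In that fit 0.345% of all tested genes rose and 0.0492% fell. With the block 4 of the 18 rose and 5 fell (median log2 difference -0.10), where 4.09% and 6.41% of all tested genes did. The further genes that rose with the block were Gpt2, the mitochondrial alanine aminotransferase, from 1.30 ± 0.180 to 2.15 ± 0.125 FPKM, and Aldh5a1, the last enzyme of the route that degrades the transmitter GABA, from 1.64 ± 0.204 to 3.01 ± 0.317 FPKM. For both genes all agonist values were above all vehicle values. Of those that fell with the block, Pfas, of purine synthesis, went from 12.3 ± 1.75 to 8.50 ± 0.511 FPKM. Cad, which starts pyrimidine synthesis, went from 26.2 ± 4.40 to 19.2 ± 3.37 FPKM, and Ctps, which makes CTP, from 18.7 ± 4.03 to 13.2 ± 2.47 FPKM. Psat1, an aminotransferase of serine synthesis that uses glutamate, went from 46.5 ± 10.8 to 36.3 ± 6.62 FPKM. The groups of Ctps and Psat1 overlapped, and the agonist value was lower in all 3 pairs.

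Among 14 tested genes of arginine and polyamines, 0 passed limma's test without the block. At an unadjusted p under 0.05, 2 were higher and 2 lower, where 5.22% and 8.74% of all tested genes were. With the block 1 rose and 4 fell (median log2 difference -0.15), where 4.09% and 6.41% of all tested genes did. Ornithine decarboxylase, Odc1, which uses the ornithine that Oat also handles, was at 172, 138 and 131 FPKM with vehicle and at 283, 223 and 209 FPKM with the agonist. It rose with the block, by a log2 difference of 0.69 (0.67 to 0.72 in the pairs), and the agonist values were all above the vehicle values. Spermidine synthase, Srm, which acts after it, was at 16.6, 33.7 and 26.1 FPKM with vehicle and at 8.996, 19.24 and 14.07 FPKM with the agonist. It fell with the block, by 0.82 on the log2 scale. Each agonist library was below the vehicle library of the same number, although the groups overlapped. The ratio of Odc1 to Srm was 4.09 to 10.3 with vehicle and 11.6 to 31.5 with the agonist.

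Of 6 tested glutathione genes, 0 passed limma's test without the block (1 lower unadjusted) and 1 fell with it (median -0.20). This was Gclm, the modifier subunit of the enzyme that joins glutamate to cysteine, at 10.5, 10.7 and 10.4 FPKM with vehicle and 8.38, 7.23 and 7.38 FPKM with the agonist. Other models overlap Gclm, Gm6061 on the same strand (0 to 150.6 FPKM) and Gm17494 on the opposite strand (2.995 to 14.51 FPKM). Part of the Gclm signal may belong to them. Of 12 tested transporters of glutamine, proline and ornithine, 0 passed without the block (3 lower unadjusted) and 4 fell with it (median -0.11). The largest of these differences was that of Slc7a5, a large neutral amino acid carrier, which fell from 22.7 ± 5.87 to 13.7 ± 3.32 FPKM. The model Gm20388 overlaps Slc7a5 on the opposite strand at 20.24 to 25.55 FPKM, and the strand setting of the counting is not known. Of 9 tested regulators 0 passed in either fit (1 higher unadjusted, median -0.01). Of 5 tested genes of the other proline and ornithine steps likewise 0 passed (2 lower unadjusted, median -0.05). The shares of all tested genes were 6.41% fallen with the block, and 5.22% higher and 8.74% lower unadjusted.

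The 10 genes named here that passed only with the block (Gpt2, Aldh5a1, Pfas, Cad, Ctps, Psat1, Odc1, Srm, Gclm and Slc7a5) had limma adjusted p-values of 0.0143 to 0.0450 with it and of 0.109 to 0.499 without it. Over all alternatives these ran from 0.0125 to 0.846. Each differed in 1 direction in all 3 pairs, which was so for 20.7% (higher) and 31.6% (lower) of tested genes. A call with the block itself favours pairs that differ in the same direction, so nothing is read from this agreement. In the fit with the block, 6 of the 64 genes were called without pair 1, and 0 without pair 2 or without pair 3. Of all 12186 tested genes, 241 were called without pair 1, 0 without pair 2 and 1 without pair 3.

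**Figure D2:**
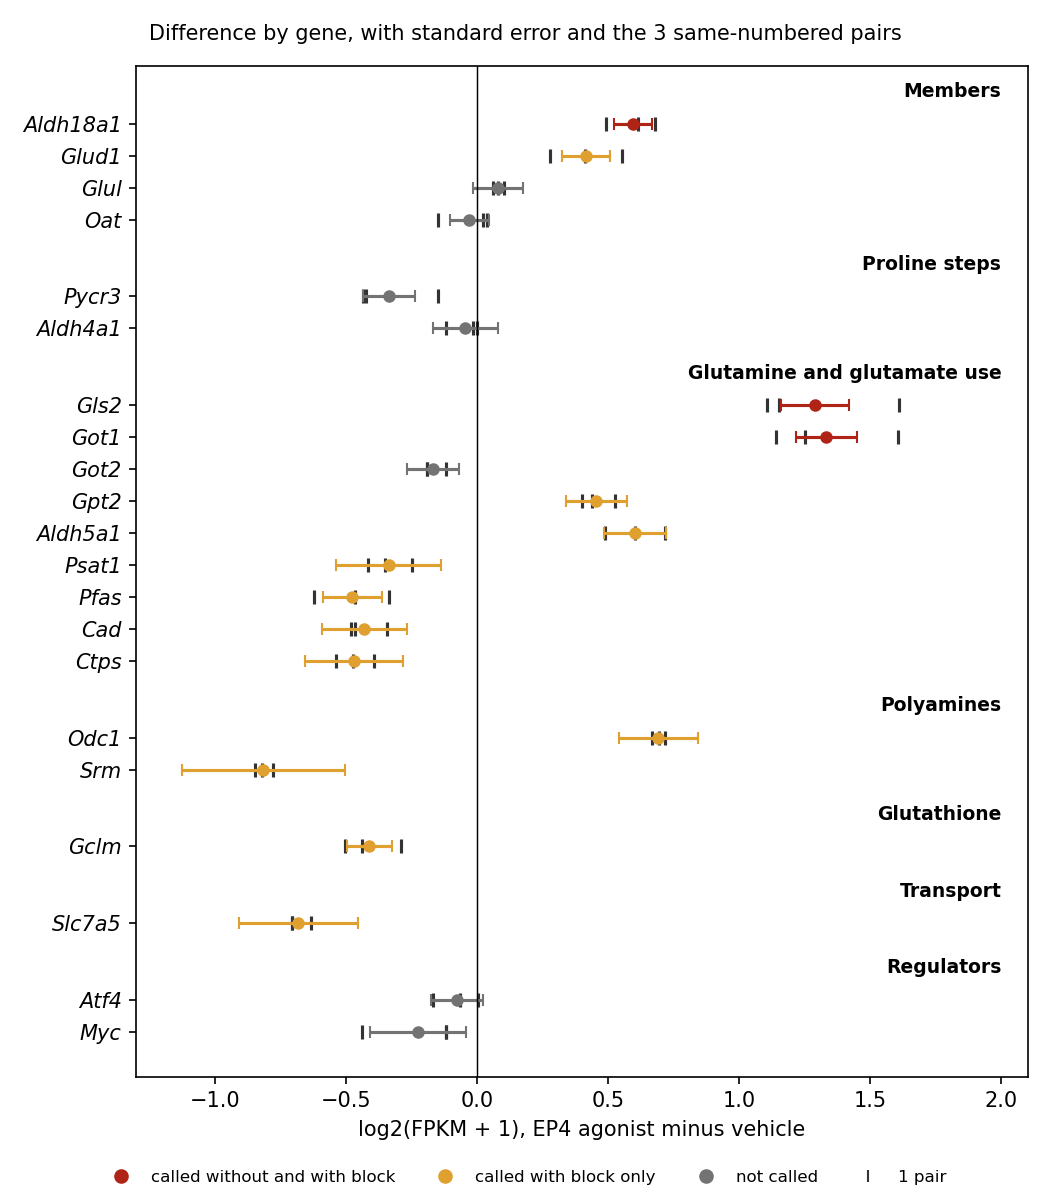
Agonist minus vehicle difference of log2(FPKM + 1) for the tested members and pathway genes named in the text. Points give the estimate of limma without the block, bars 1 standard error, and short vertical marks the 3 same-numbered pairs. Gls2 (1.29) and Got1 (1.33) stand farthest to the right and Srm (-0.82) farthest to the left. The scale compresses changes of low genes. Mean FPKM with the agonist were 3.47 times those with vehicle for Gls2 and 2.59 times for Got1.

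**Figure D3:**
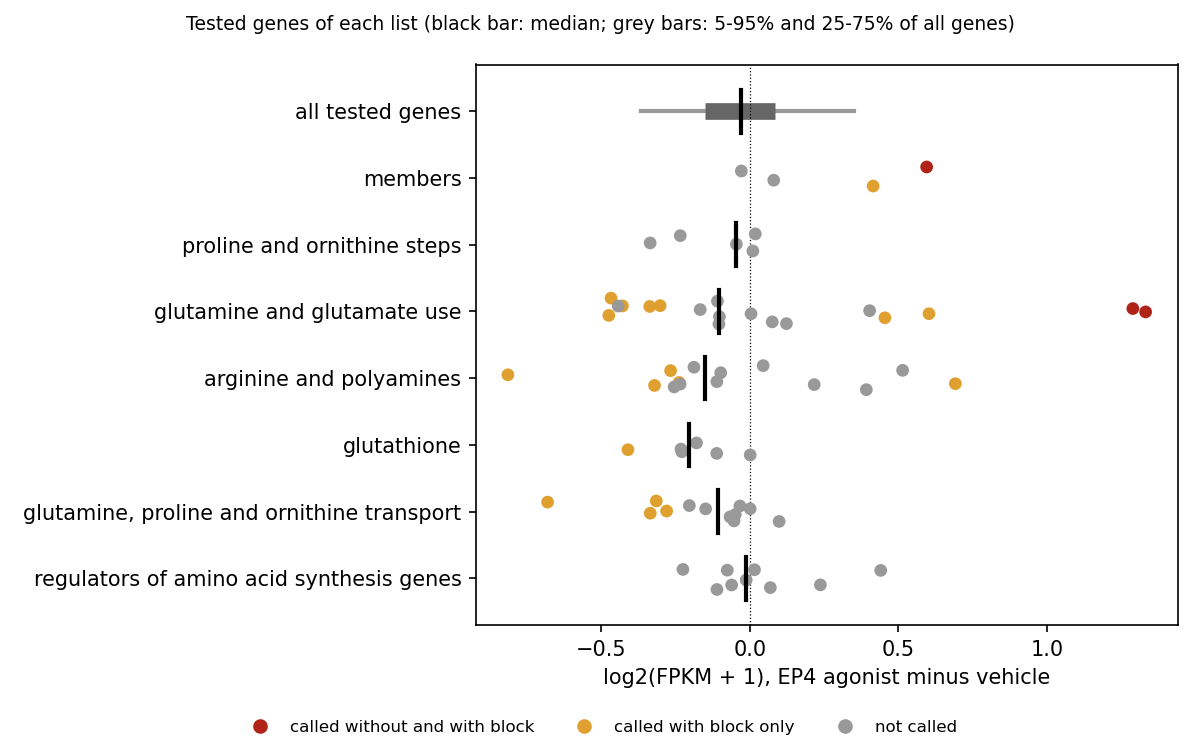
Agonist minus vehicle difference of log2(FPKM + 1) for all tested genes of each list, 1 point a gene, with the list's median as a black bar (none is drawn for the members). The top row shows the spread of all 12186 tested genes, whose middle 50% lie between -0.15 and 0.09. Among the genes drawn as points, Aldh18a1, Gls2 and Got1 were called without the block, and calls with the block lie on both sides of 0. The members were selected on these values, so their calls are no test of them. The lists were written with earlier results of these data known.

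The 6 libraries rested on an estimated 4.32 to 5.65 gigabases of aligned sequence. This estimate is the commonest ratio of coverage to FPKM, which 36.5% to 38.5% of the rows used shared. Foxp3 was at 109 to 154 FPKM and Cd4 at 102 to 149 FPKM in the 6 libraries. Of 8 markers of Treg and T cells, 0 passed limma's test without the block (2 higher at an unadjusted p under 0.05) and 1, Ikzf2, rose with it. Every agonist value was above every vehicle value for 2 of the 8, Ctla4 (241.8 ± 35.5 FPKM with vehicle, 379.6 ± 56.7 with the agonist) and Il2rb (475.4 ± 19.7 and 557.8 ± 35.6). Ikzf2, Ctla4 and Il2rb are named after their values were seen. Of all tested genes, 0.345% rose without the block, 5.22% were higher unadjusted and 4.09% rose with the block. Every agonist library lay above every vehicle library for 7.27% of them. Of the markers of other cells, the 8 for myeloid and dendritic cells summed to 0.260 to 0.886 FPKM with vehicle and 0.367 to 0.560 with the agonist, with Siglech listed at 0 throughout, and the 3 for NK cells to at most 0.284 FPKM. The 5 B cell markers summed to 5.64 to 5.93 FPKM with vehicle and 3.69 to 6.20 with the agonist, most of it Cd79b, and Pax5 was at 0.00856 FPKM or less. The 2 CD8 markers summed to 3.89 to 5.43 and 4.53 to 6.40 FPKM. The part of any of these markers in the results was not tested.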

How the data were processed

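The 6 nTreg RNA-seq libraries each came with a table of gene abundances (mm10). The submitters' processing notes name Trim Galore, a read trimmer, and HISAT2, an aligner. Which program estimated abundances, from which annotation release and with what strand setting, is not given in the sources used here. The tables hold FPKM and coverage, per the file headers, and the authors' FPKM values were used as deposited. The deposited coverage signal served as an alternative and, through its commonest ratio to FPKM, gave an estimate of the aligned bases. Fragment counts were not recovered, so no counting interval is given. Rows that share a gene identifier were summed.

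The 6 members, the gene lists and the tests were chosen with earlier results of these data known. Of 80 pathway genes all were found, 1 of them (Pycr3) through a RefSeq synonym. Agonist and vehicle were compared with limma 3.58.1 (intensity trend, robust variances, statmod 1.5.0) in R 4.3.3 on log2(FPKM + 1) of the 12186 genes that reached FPKM 1 in 3 or more libraries, with Benjamini-Hochberg adjustment over all of them and a threshold of 0.05. "Rose" and "fell" mean a call by this test, and "with the block" means that the replicate number was added as a factor. The fits were first run on simulated data with independent noise in each library. Those data held no pairing, so they are no check of the fit with the block on paired libraries. Python 3.11.15 with numpy 2.4.6, pandas 2.3.3 and matplotlib 3.10.9 served for tables and plots.

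Whether the replicate numbers pair libraries was decided from deviations from the group means over the tested genes. They correlated at 0.512, 0.404 and 0.321 for the same-numbered pairs, all above the limit of 0.1, and at -0.353 to 0.002 for the others. A gene's deviations cancel out within each group, so positive values in the pairs by themselves push the others down. The pairing rests on these data, since the labels do not say what the number marks. The fit without the block was the main one. Pathway genes were named if called in either fit, at most 12 by size of difference, with 10 others fixed by name whatever their values. Some of these are not reported here. Promoter windows came from RefSeq (GRCm38.p6), and all 6 members matched by symbol.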

Additional observations from a re-analysis of the deposited data

How the results depend on the processing

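The number of genes that limma called, 48 of 12186 in the fit reported, was 2 without a filter on low FPKM, 75 with upper quartile scaling, 78 with coverage in place of FPKM, 1279 with the replicate block and 997 with the replicate block and quantile normalization. Without 1 library it ranged from 0 to 133, with 1033, 1115 and 1606 genes at an unadjusted p under 0.05 where it was 0 (without vehicle replicate 2, vehicle replicate 3 and agonist replicate 2). With the block and 1 pair left out, a setting added after the data were seen, it ranged from 0 to 241, with 2557 genes unadjusted where it was 0. The other 5 settings kept it within 1.5 times.

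The log2 difference of Aldh18a1 stayed between 0.55 and 0.66 and that of Glud1 between 0.34 and 0.48 over all alternatives. Assembled loci in place of the reference models gave 0.60 and 0.42, from nearly the same values, so they are no separate check. Without the filter on low FPKM 0 of the members and 0 of the pathway genes were called. Besides the changes given above, the block changed no call among the named genes. Fragment counts were not used, so the counting error of Pycr1 and Prodh, below 1 FPKM, is unknown.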

Other observations

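Besides the genes named by the rule, 7 pathway genes passed limma's test only with the block, and they are named here after their values were seen. All 7 fell, in a fit where 6.41% of all tested genes did. Their log2 differences were from -0.34 to -0.24, with limma adjusted p-values of 0.0295 to 0.0378 with the block and of 0.190 to 0.552 without it. Over all alternatives these ran from 0.0295 to 0.876. Slc1a5, a major carrier of glutamine into T cells, went from 61.6 ± 5.10 to 49.3 ± 2.20 FPKM, and Slc25a22, which carries glutamate into mitochondria, from 10.3 ± 0.972 to 7.92 ± 0.467 FPKM. For both, every agonist library was below every vehicle library, as in 12.1% of tested genes. Slc7a1, a carrier of arginine and ornithine, went from 16.2 ± 2.25 to 13.2 ± 1.58 FPKM. Ass1, which joins citrulline to aspartate on the way to arginine, was abundant and went from 149 ± 33.3 to 118 ± 19.0 FPKM. Ppat, the first step of purine synthesis and a user of glutamine, went from 18.2 ± 3.15 to 14.5 ± 2.04 FPKM. The polyamine genes Amd1 and Dhps went from 22.8 ± 3.81 to 19.2 ± 3.26 and from 19.3 ± 1.98 to 15.9 ± 1.03 FPKM. The groups of Dhps did not overlap either, whereas those of Slc7a1, Ass1, Ppat and Amd1 overlapped.

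Several genes of these routes were low in all 6 libraries. These too are named after their values were seen. The arginase genes Arg1 and Arg2 did not exceed 0.0581 and 0.101 FPKM, and Slc7a11, the cystine carrier, did not exceed 0.0247 FPKM. Otc, the ornithine transcarbamylase gene, and the transporter genes Slc38a5 and Slc6a20a were listed at 0 in all 6.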
